A study of Rattus norvegicus with 2 samples.

Results

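The enzymes described here are those of the tricarboxylic acid (TCA) cycle and of mitochondrial fatty acid oxidation, a set of 36 named genes. They were found as every probe set, the group of short array probes summarised to 1 value, that the platform annotation assigns to a single gene of the set. This gave 49 probe sets for 34 genes, out of 31042 non-control probe sets on the array, and no such probe set was found for Dlat and Fh, so they have no intensities here. The study compared microglial cells, the brain's resident macrophages, of Sprague Dawley rats. All cells were grown in serum-containing DMEM. The resting group (1 array) was unexposed, and the other group (1 array) had been exposed for 3 h to oxygen-glucose deprivation (OGD), which withholds oxygen and glucose as a culture model of ischaemia. Neither the animals' age nor whether the cells were freshly prepared is given in the sources used here. There were no replicates, so no value below carries a test, a standard error or a p-value, and every difference describes these 2 arrays.

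The TCA cycle oxidises acetyl-CoA to carbon dioxide and hands electrons to the respiratory chain, with pyruvate dehydrogenase and pyruvate carboxylase feeding pyruvate into it. Fatty acids enter the mitochondrion as carnitine esters and are shortened by repeated rounds of beta-oxidation, whose electrons reach ubiquinone through the electron transfer flavoprotein. Both routes need oxygen as the final electron acceptor, and resting microglia are generally held to draw on oxidative metabolism while inflammatory activation shifts them towards glycolysis.

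Promoter sequences are printed for 2 partner pairs whose members lay on opposite sides of 0, Hadha with Hadhb and Etfa with Etfb, and for Acat1, the gene of the set with the largest difference. They were chosen after the values were seen. RefSeq (build GRCr8) supplied a window of 300 bases, from 250 before to 50 after the annotated start, for 32 of the 36 genes. Each is written 5′ to 3′ on the strand of its gene, and capitals mark the GC box GGGCGG, the CCAAT box, the nuclear receptor core AAGGTCA and the hypoxia response element core ACGTG, on either strand. Hadhb lies on the minus strand at chr6:31907451-31907750, Hadha on the plus strand at chr6:31907551-31907850, Etfa on the minus strand at chr8:64787916-64788215, Etfb on the plus strand at chr1:102988249-102988548, and Acat1 on the minus strand at chr8:62904993-62905292.
Hadhb: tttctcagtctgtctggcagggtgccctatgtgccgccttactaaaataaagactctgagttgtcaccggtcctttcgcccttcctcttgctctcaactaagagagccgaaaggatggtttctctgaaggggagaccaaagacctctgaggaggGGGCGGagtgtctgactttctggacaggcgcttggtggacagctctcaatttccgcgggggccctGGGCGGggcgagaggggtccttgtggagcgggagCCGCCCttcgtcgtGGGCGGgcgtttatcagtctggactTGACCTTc
Hadha: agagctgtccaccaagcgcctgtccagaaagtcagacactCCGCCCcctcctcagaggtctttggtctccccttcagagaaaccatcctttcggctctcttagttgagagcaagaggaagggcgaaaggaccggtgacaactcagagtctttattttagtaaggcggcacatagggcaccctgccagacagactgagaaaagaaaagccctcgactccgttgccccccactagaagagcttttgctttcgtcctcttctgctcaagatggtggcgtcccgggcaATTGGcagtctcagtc
Etfa: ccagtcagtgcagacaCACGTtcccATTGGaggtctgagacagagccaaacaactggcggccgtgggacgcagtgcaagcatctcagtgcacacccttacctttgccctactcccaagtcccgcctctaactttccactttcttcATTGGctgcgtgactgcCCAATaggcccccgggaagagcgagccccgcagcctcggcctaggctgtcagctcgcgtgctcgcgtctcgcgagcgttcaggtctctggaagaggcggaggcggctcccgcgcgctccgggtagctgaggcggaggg
Etfb: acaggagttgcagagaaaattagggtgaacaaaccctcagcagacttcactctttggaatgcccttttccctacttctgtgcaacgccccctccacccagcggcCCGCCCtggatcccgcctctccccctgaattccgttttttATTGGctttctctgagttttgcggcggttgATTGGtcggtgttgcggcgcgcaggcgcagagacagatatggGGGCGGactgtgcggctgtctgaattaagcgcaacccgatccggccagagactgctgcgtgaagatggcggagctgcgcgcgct
Acat1: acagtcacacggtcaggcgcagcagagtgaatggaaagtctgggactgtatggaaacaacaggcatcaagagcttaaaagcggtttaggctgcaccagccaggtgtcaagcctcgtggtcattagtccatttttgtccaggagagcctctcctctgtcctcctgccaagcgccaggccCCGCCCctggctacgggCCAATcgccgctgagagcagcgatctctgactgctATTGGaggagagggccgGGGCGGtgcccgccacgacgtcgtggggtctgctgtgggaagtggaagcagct

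Hadha and Hadhb are transcribed away from each other, and their windows share 200 bases read on opposite strands. Of the 32 promoters 28 belong to genes measured on these arrays, as defined below, and the counts that follow are over these. The GC box was found in 19 of the 28 (67.9%), against 60.7% of the 8933 promoters of genes measured here. CCAAT was found in 13 of 28 (46.4%, against 36.8%) and ACGTG in 5 of 28 (17.9%, against 24.5%), namely in Etfa, Etfdh, Idh3g, Ogdh and Pdhb. CACGTG, the E-box, which contains ACGTG, was found in Ogdh and Pdhb (7.14%, against 9.09%). Hadhb alone held AAGGTCA (3.57%, against 2.93%), at the downstream end of its window. TGCGCA was found in Dld, Etfdh, Glud1 and Mdh2 (14.3%, against 12.5%). Over all 33469 promoters in the table the shares were 33.1% for the GC box, 37.5% for CCAAT, 19.3% for ACGTG, 6.42% for CACGTG, 4.61% for AAGGTCA and 7.24% for TGCGCA. These are matches of letters, not sites shown to be bound.

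No measured gene of the set differed by 1.5-fold between the arrays, and a single one, Acat1, differed by 1.2-fold. Values are linear intensities, and differences are log2 OGD minus log2 resting. A gene is represented by its brightest probe set, and it counts as measured when this lies above the median of its array on at least 1 array, which was 19.6 at rest and 19.7 after OGD. Of the 34 genes 31 were measured, all of them on both arrays. After OGD 19 had a lower value and 11 a higher one, Acadm was equal, and the median difference was -0.060, against -0.0076 over all 9580 measured genes. With quantile normalization or the loess trend removed, 18 were lower and 13 higher. Lower by any amount were 51.3% of all measured genes and higher 42.8%. The 1.5-fold mark, the study's own threshold, was passed by 0.115% of all measured genes and the 1.2-fold mark by 7.53%. The count of 1 of 31 at 1.2-fold is thus no larger share than that background.

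The only error these data allow is the scatter among probe sets of 1 gene, whose differences had an SD of 0.147 over 1902 genes. Differences beyond 1 such SD were found for 8 of the 31 genes (25.8%), against 29.9% of all measured genes. Over the 5 genes of the set that allow it the SD was 0.166, and Idh2, Suclg1 and Hadh lay between these values. The differences of all genes above the floor on both arrays had an SD of 0.148, close to that among probe sets of 1 gene. This scatter does not include the spread between cultures. The scaling of the deposited values is not given, so a shift shared by all transcripts cannot be seen, and in such bulk samples fewer cells of a type cannot be told apart from less RNA per cell.

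**Figure D1:**
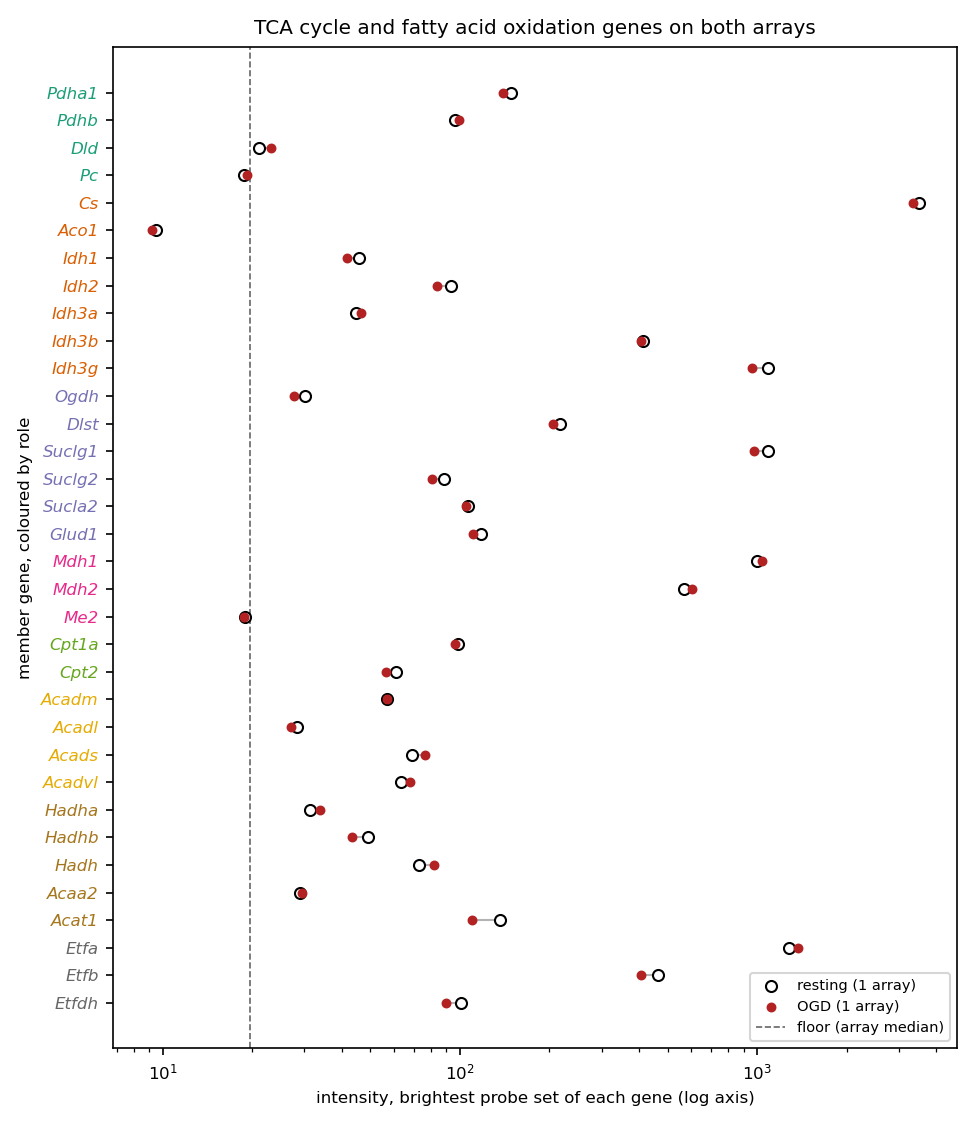
Intensity (log axis) of the brightest probe set of each of the 34 genes, open circles for the resting array, red points for the OGD array, with the floor dashed and gene names coloured by role. The 2 arrays lie close for each gene, with the widest step at Acat1 (136.4 against 110.0), and Pc, Aco1 and Me2 lie under the floor.

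Genes at the entry of pyruvate lay on both sides of 0, within 0.13. Pdha1, the alpha subunit of the pyruvate dehydrogenase component that decarboxylates pyruvate, had an intensity of 148.4 at rest and 139.7 after OGD, a difference of -0.087, and its other probe set gave -0.059. Pdhb, the beta subunit, had 96.5 and 99.0, a difference of 0.036. Dld, the dihydrolipoamide dehydrogenase shared with the 2-oxoglutarate complex, had 21.1 and 23.1, a difference of 0.13 close to the floor. All 3 genes were thus within the probe set scatter. Pc, the pyruvate carboxylase that makes oxaloacetate, was under the floor on both arrays (18.7 and 19.2) and is given no difference.

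Of the genes of citrate and isocitrate 5 of 6 measured were lower on the OGD array, against 51.3% of all measured genes, with a median of -0.095. Among the 5 was Idh3b, whose sign turned with quantile normalization or the loess trend removed. Citrate synthase (Cs) had 3493 at rest and 3352 after OGD, a difference of -0.060. Its other 3 probe sets, at 175.9, 77.7 and 38.8 at rest, gave -0.012, 0.039 and 0.31. Those at 77.7 and 38.8 thus pointed the other way, and the mean over all 4 was 0.069. Idh1, the cytosolic and peroxisomal NADP-dependent isocitrate dehydrogenase, had 45.7 and 41.8, a difference of -0.13. Idh2, its mitochondrial counterpart, had 93.7 and 83.8, a difference of -0.16. Both NADP-dependent enzymes were thus lower, by 1.09-fold and 1.12-fold. Aco1, the cytosolic aconitase that also serves as an iron regulatory protein, was under the floor at 9.52 and 9.20.

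The 3 subunits of the NAD-dependent isocitrate dehydrogenase did not lie together. Idh3a, the catalytic subunit, had 44.7 at rest and 46.5 after OGD, a difference of 0.056. Idh3b had 413.2 and 406.1, a difference of -0.025 that became 0.0079 with quantile normalization and 0.0095 with the loess trend removed. Idh3g, a regulatory subunit, had 1089 and 960.1, a difference of -0.18 or 1.13-fold lower. The gap between Idh3a and Idh3g was 0.24.

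All 6 genes of the steps from 2-oxoglutarate to succinate, with the glutamate entry, were lower on the OGD array in their brightest probe sets, also under the 3 other scalings. Their median was -0.11, and 51.3% of all measured genes were lower. Of the 6, Suclg1 alone lay beyond the probe set scatter of 0.147 (within the 0.166 of the set's own genes), and 0 passed 1.2-fold. Ogdh, which decarboxylates 2-oxoglutarate, had 30.2 at rest and 27.6 after OGD, a difference of -0.13. Dlst, the succinyltransferase of the same complex, had 217.0 and 205.1, a difference of -0.081. These 2 components of the complex were thus below 0, while Dld, the remaining one, was above 0 at 0.13, all within the probe set scatter.

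Suclg1, the alpha subunit common to both succinyl-CoA ligases, had 1090 at rest and 975.6 after OGD, a difference of -0.16. Suclg2, the beta subunit of the GTP-forming enzyme, had 88.6 and 80.8, a difference of -0.13. Sucla2, the beta subunit of the ATP-forming enzyme, had 106.8 and 104.9, a difference of -0.025. Its other probe set, under the floor at 16.0 and 18.6, gave 0.22, and the mean over both was 0.097. Glud1, the glutamate dehydrogenase that supplies 2-oxoglutarate, had 117.5 and 110.9, a difference of -0.084. The other probe set of Glud1 was under the floor on the OGD array (22.8 and 19.1), so that its difference is -0.21 or beyond. Both probe sets of Glud1 were thus lower, while Sucla2 has a single probe set above the floor.

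The malate dehydrogenases were both slightly higher on the OGD array, as were 42.8% of all measured genes. Mdh1, the cytosolic enzyme of the malate-aspartate shuttle, had 998.0 at rest and 1036 after OGD, a difference of 0.055, and its other probe set, near the floor, gave 0.23 (20.3 and 23.8). Mdh2, the mitochondrial enzyme that closes the cycle, had 567.8 and 605.5, a difference of 0.093. All 3 of these probe sets were higher, against 43.7% of all probe sets above the floor, and the one near the floor lay beyond the probe set scatter. Me2, the mitochondrial malic enzyme, was under the floor on both arrays (18.9 and 18.8).

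**Figure D2:**
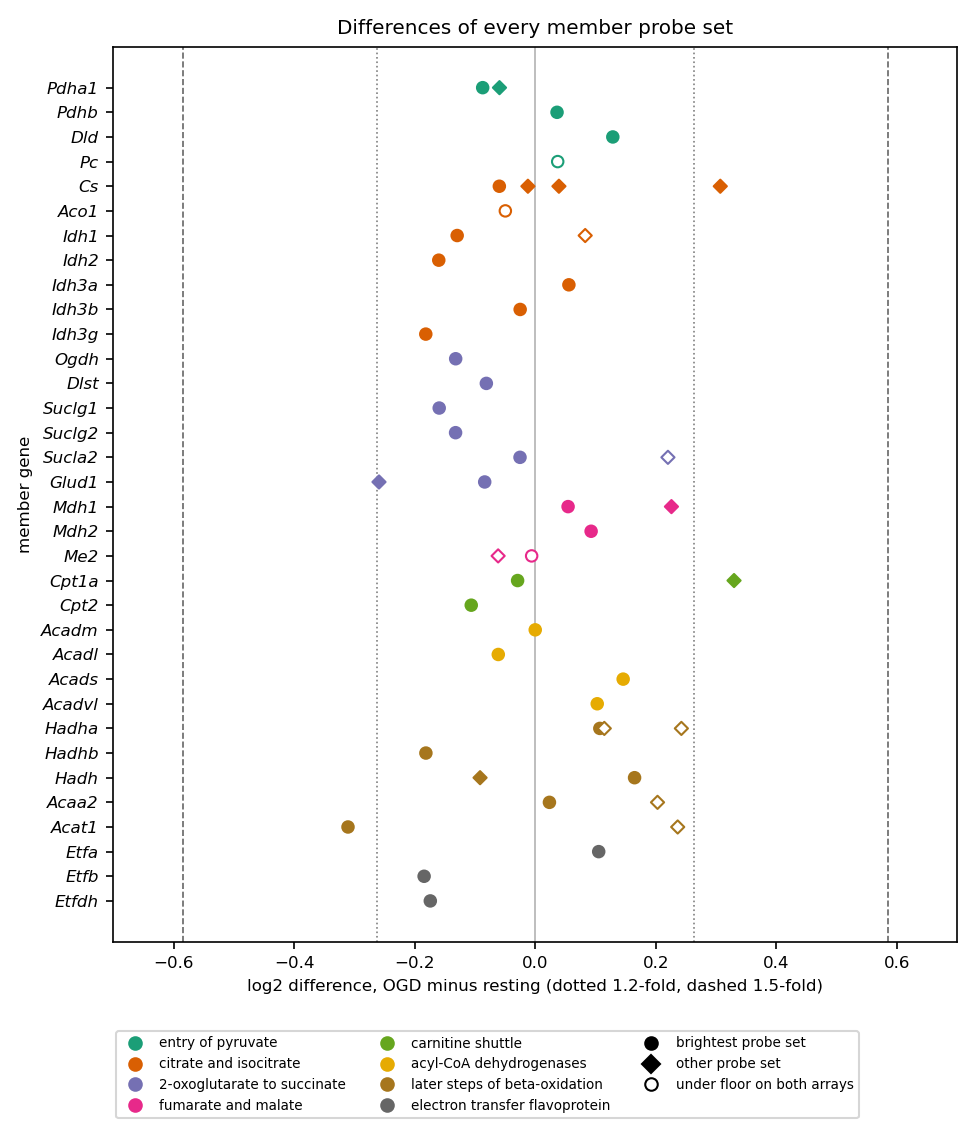
Log2 difference (OGD minus resting) of all 49 probe sets by gene, coloured by role, with circles for the brightest probe set, diamonds for others, filled where 1 or both arrays exceeded the floor and open where neither did, and lines at 1.2-fold (dotted) and 1.5-fold (dashed). All lie inside 1.5-fold, and 3 filled points lie past 1.2-fold, Cs at 0.31 and Cpt1a at 0.33 in diamonds and Acat1 at -0.31 as a circle.

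Both genes of the carnitine shuttle were lower on the OGD array in their brightest probe sets, as were 51.3% of all measured genes. Cpt1a, the carnitine palmitoyltransferase of the outer membrane that commits long-chain fatty acids to oxidation, had 98.3 at rest and 96.3 after OGD, a difference of -0.029. Its other probe set, also above the floor, had 36.6 and 46.0, which is 1.26-fold higher. The probe sets of Cpt1a thus pointed in opposite directions, and their mean was 0.15. Cpt2, which reforms the acyl-CoA inside, had 60.9 and 56.6, a difference of -0.11.

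The acyl-CoA dehydrogenases, which open each round of beta-oxidation and divide the fatty acids by chain length, had a median of 0.051. Acads, for short chains, had 69.3 at rest and 76.6 after OGD, a difference of 0.15 or 1.11-fold higher. Acadvl, for very long chains, had 63.3 and 67.9, a difference of 0.10. Both lay within the probe set scatter. Acadl, for long chains, had 28.2 and 27.0, a difference of -0.061. Acadm, for medium chains, had exactly 56.7 on both arrays. Equal values were found for 8.70% of all non-control probe sets, for a reason not given, so this pair may not show an unchanged level.

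The later steps of beta-oxidation held the largest differences of the set in both directions, judged by the brightest probe sets. Acat1, the mitochondrial acetoacetyl-CoA thiolase of ketone body and isoleucine metabolism, had 136.4 at rest and 110.0 after OGD, a difference of -0.31 or 1.24-fold lower. In its brightest probe set this was the only measured gene of the set past 1.2-fold, against 3.97% of all measured genes lower and 3.56% higher by that much. The other probe set of Acat1, under the floor on both arrays (15.9 and 18.7), gave 0.24, and the mean over both was -0.037. The lower value thus rests on a single probe set. Hadh, the dehydrogenase for short- and medium-chain hydroxyacyl-CoA, had 72.8 and 81.6, a difference of 0.16 or 1.12-fold higher, while its other probe set had 35.7 and 33.5, a difference of -0.092.

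The subunits of the trifunctional protein, which carries out the last 3 steps on long chains, lay on opposite sides of 0. Their promoter windows overlap as printed above, and a link between the windows and these values was not tested. Hadha, the alpha subunit with hydratase and dehydrogenase activity, had 31.4 at rest and 33.8 after OGD, a difference of 0.11. Its other probe sets, both under the floor, gave 0.11 and 0.24. Hadhb, the beta subunit with thiolase activity, had 49.0 and 43.3, a difference of -0.18 or 1.13-fold lower. The gap between the subunits was 0.29, and 0.28 with either quantile normalization or the loess trend removed. Acaa2, another mitochondrial thiolase, had 28.9 and 29.4, a difference of 0.024, and 0.20 in a second probe set under the floor.

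The electron transfer flavoprotein showed a like split. Etfa, its alpha subunit, had 1276 at rest and 1372 after OGD, a difference of 0.11. Etfb, its beta subunit, had 462.7 and 407.1, a difference of -0.18. Etfdh, the membrane dehydrogenase that passes the electrons to ubiquinone, had 100.9 and 89.5, a difference of -0.17. Etfb and Etfdh were thus lower by 1.14-fold and 1.13-fold, and Etfa was 1.08-fold higher.

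These gaps between partners were of a size also seen between probe sets of 1 gene. Over 1902 genes with at least 2 probe sets each exceeding the floor at rest and after OGD, the absolute gap between the brightest pair had a median of 0.13 and a 90th percentile of 0.34. Of 18 pairs compared, 0 exceeded that percentile. Besides subunits of 1 complex these include pairs of separate enzymes. They are Mdh1 with Mdh2, Idh1 with Idh2, Cpt1a with Cpt2, and Etfdh with Etfa and with Etfb. The percentile was pooled over all intensities, while the differences of all measured genes had an SD of 0.166 at a mean intensity under 50 and 0.116 above 200. The percentile may thus be too wide for bright pairs such as Etfa with Etfb. The widest were Etfa with Etfb at 0.29, Hadha with Hadhb at 0.29, Etfa with Etfdh at 0.28, Ogdh with Dld at -0.26 and Idh3a with Idh3g at 0.24. Narrow ones were Etfb with Etfdh at -0.010, Suclg1 with Suclg2 at -0.027 and Mdh1 with Mdh2 at -0.038.

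**Figure D3:**
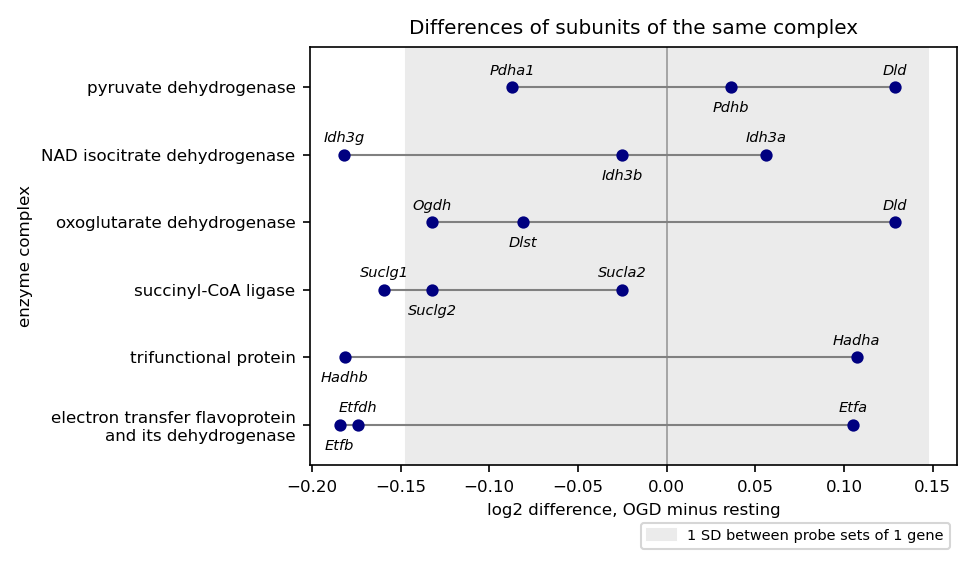
Log2 difference (OGD minus resting) of the brightest probe set of each subunit, 1 row per enzyme complex, points joined by a line, with a grey band for 1 SD between probe sets of 1 gene (0.147). Dld belongs to both dehydrogenase complexes and is drawn in each. Etfdh, a separate enzyme, is drawn with Etfa and Etfb. The line is shortest for succinyl-CoA ligase (-0.16 to -0.025), whose subunits all lie below 0, and each other line crosses 0.

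By route, 12 of the 17 measured genes of pyruvate entry and the TCA cycle were lower on the OGD array (70.6%, against 51.3% of all measured genes). Their median was -0.081, and 5 were higher. Idh3b again turned with quantile normalization or the loess trend removed, and Cs (0.069) and Sucla2 (0.097) with the mean over probe sets. Of the 14 genes of fatty acid oxidation 7 were lower and 6 higher, with a median of -0.015. Among these Cpt1a turned with the mean over probe sets (0.15). The difference between the routes was not tested. Brightness moved with these values: among all measured genes 45.9% were lower at a mean intensity under 50, 52.3% from 50 to 200 and 63.5% above 200. In the same ranges 4 of 8, 9 of 14 and 6 of 9 genes of the set were lower. The medians were -0.019, -0.057 and -0.060 for the set and 0, -0.012 and -0.037 for all measured genes. The part of brightness in the set's values was not tested beyond the scalings. With quantile normalization the median was -0.043 for the set and -0.0019 for all measured genes. With the loess trend removed it was -0.030 for the set and -0.0032 for all measured genes.

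**Figure D4:**
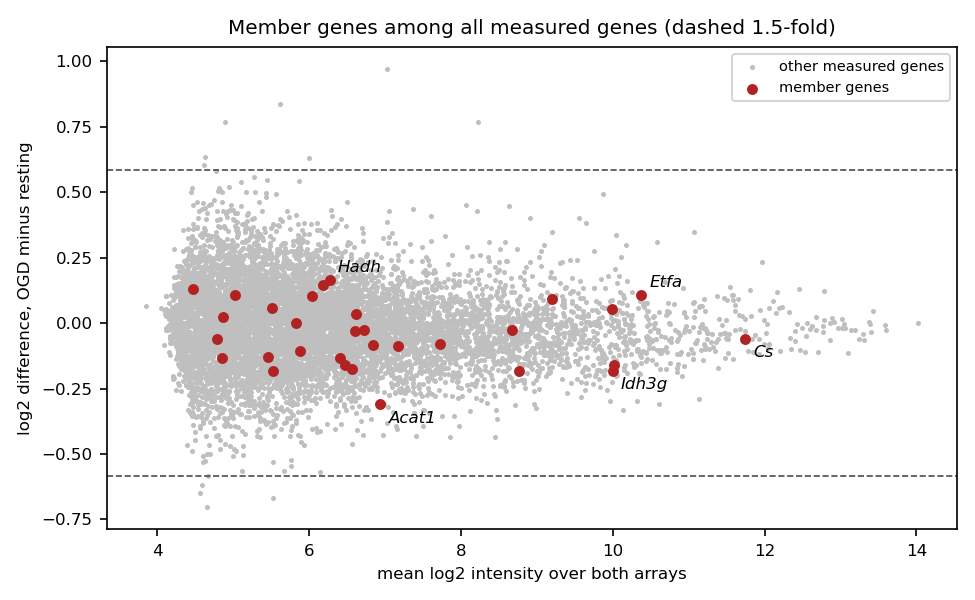
Log2 difference (OGD minus resting) against mean log2 intensity for all 9580 measured genes (grey) and the 31 measured genes of the set (red), with 1.5-fold dashed. The red points lie within the grey cloud, from -0.31 (Acat1) to 0.16 (Hadh).

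Second probe sets could be read for few genes. Of the 12 genes of the set with more than 1 probe set, the next brightest was under the floor on both arrays for 6 (Idh1, Sucla2, Me2, Hadha, Acaa2 and Acat1). Of the other 6, 4 had a more positive difference in the next brightest than in the brightest, with a median step of 0.038, against 51.9% of 2074 genes overall with a median step of 0.011. Counted by probe set, 23 of 39 above the floor were lower (59.0%, against 50.3% of all 12231 such probe sets) and 15 higher (38.5%, against 43.7%), with 3 past 1.2-fold (8.10% of all probe sets above the floor) and a median of -0.029, against -0.0031 over all.

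Other genes of these pathways, 67 in a list beside the set, gave 40 measured genes with a median of -0.022. Of these 22 were lower (55%, against 51.3% of all measured genes) and 16 higher (40%, against 42.8%). The 1.5-fold mark was passed by 0 of them, against 0.115% of all measured genes. Mpc1, a subunit of the mitochondrial pyruvate carrier, had 346.9 at rest and 287.2 after OGD, which is 1.21-fold lower. Sdhb, the iron-sulphur subunit of succinate dehydrogenase, had 543.5 and 454.6, a difference of -0.26. Hsd17b4, a peroxisomal beta-oxidation enzyme, was 1.16-fold lower and Got1, the cytosolic aspartate aminotransferase, 1.15-fold lower. On the higher side, Pdp1, the phosphatase that activates pyruvate dehydrogenase, had 22.5 and 28.1, a difference of 0.32 close to the floor. Esrra, a nuclear receptor that governs many mitochondrial genes, had 78.2 and 93.2, a difference of 0.25. Acsl5, a fatty acyl-CoA synthetase, had 64.1 and 75.8, a difference of 0.24. Pdk4, a kinase that inhibits pyruvate dehydrogenase, had 22.2 and 25.4, a difference of 0.19, also close to the floor.

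The parts of this list are set against 51.3% lower and 42.8% higher over all measured genes. The regulators of pyruvate entry had a median of -0.11 with 4 of 7 measured genes lower. The other TCA genes and carriers had -0.022 with 8 of 14 lower. Further genes of fatty acid activation and oxidation had -0.046 with 8 of 12 lower. Transcriptional and metabolic regulators had 0.018, with 2 of 7 lower and 4 higher. The hypoxia-responsive kinase gene Pdk1 was under the floor at 18.3 on both arrays, so the arrays give no difference for it.

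The labelled cell type was checked against its markers. Of 14 microglial markers with a probe set 13 were measured, among them Cd68 at 370.7, Trem2 at 604.2 and Itgam at 60.9 at rest, and Fcer1g was under the floor. Others were dim, such as Cx3cr1 at 31.6, C1qc at 26.3 and Csf1r, at 21.9 at rest and under the floor after OGD (19.3). On the OGD array 12 of the 13 were lower, against 51.3% of all measured genes. Their median was -0.096 and their summed intensity 1578 against 1637. C1qc was higher (26.3 and 32.3), and its difference of 0.29 was the largest among the 13 in either direction. The part of these markers in the set's values was not tested. Among markers of other cells, the astrocyte gene Glul had 152.3 at rest, the fibroblast and mural gene Pdgfrb 117.5, the neuronal gene Elavl3 117.0 and the endothelial gene Esam 89.0. Under the floor on both arrays were 4 of 8 astrocyte markers (Aldh1l1, Aqp4, S100b and Slc1a3), 4 of 7 oligodendrocyte, 4 of 6 neuronal, 4 of 7 fibroblast and 2 of 4 endothelial markers. Summed intensities at rest and after OGD were 270.0 and 271.3 for astrocyte, 145.0 and 145.3 for oligodendrocyte, 210.3 and 211.9 for neuronal, 223.7 and 214.0 for fibroblast and 152.7 and 158.0 for endothelial markers. The astrocyte markers Gfap (27.4 and 36.9) and Slc1a2 (23.8 and 32.0) were both 1.35-fold higher near the floor and Gja1 was 1.10-fold higher (22.1 and 24.3), while Glul was 1.16-fold lower (152.3 and 131.7). Of the oligodendrocyte, neuronal, fibroblast and endothelial markers, those past 1.2-fold were Thy1 and Vwf. The fibroblast marker Thy1 was 1.28-fold lower (28.4 and 22.3) and the endothelial marker Vwf 1.22-fold higher (46.3 and 56.4). The part of all these markers in the set's values was not tested.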

How the data were processed

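The deposited values are linear intensities, 1 per probe set and array, and how the authors corrected the background, summarised and scaled them is not given in the sources used here. Labelling started from an oligo(dT) primer, per the labels' protocols. Of 31099 probe sets, 57 controls were left out, and of the rest 20826 named 1 gene, 436 several and 9780 none in the platform annotation. Symbols were updated through Entrez IDs to the RefSeq gene table (GRCr8), which held 20758 of the single-gene probe sets, giving 14217 genes. The brightest probe set by mean log2 stood for each gene, and values under the array's median were set to it. With 1 array per group there is no test, and the number of arrays limits the precision. The genes and lists were chosen with earlier results of these data known. Named are all genes of the set and the 4 largest differences each way among the other pathway genes. Alternatives were 3 other floors, a stricter rule that needs both arrays above the floor, centring, quantile normalization, loess (span 0.3), 3 other choices of probe set, a pseudocount at the 25th percentile and a count per probe set. Scalings of the partner gaps were added after seeing the data. The calculation was tested on simulated data with planted changes larger than any difference in the set. That test does not bear on differences of the size reported here. Python 3.11.15, pandas 2.3.3 and statsmodels 0.14.6 were used.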

Additional observations from a re-analysis of the deposited data

How the results depend on the processing

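With no replicates, a median counted as moved when its sign changed or it shifted by more than 0.147, the SD between probe sets of a gene. The set's median stayed negative under every alternative run, from -0.070 with the floor at the 70th percentile to -0.029 with the floor at the 30th, and the count past 1.5-fold stayed at 0. The median over all measured genes ran from -0.016 with the floor at the 70th percentile to 0.0011 with centring. The count past 1.2-fold was 0 with the mean over probe sets and 3 with each probe set on its own. With the next brightest probe set, which left 6 measured genes, 4 were lower and 2 higher, fewer because fewer genes have such a probe set. Over all genes the count past 1.5-fold, 11 as reported, was 37 with the floor at the 30th percentile, 58 with no floor, 4 with the floor at the 70th percentile, 7 with the next brightest probe set and 5 with a pseudocount. Of 307 values of single genes under alternatives 6 moved by more than the probe set SD, for Acat1, Cpt1a, Hadh and Mdh1, each through another choice of probe set. Many of the 307 could not move. A floor does not change a gene above it on both arrays, and a gene with 1 probe set has no other choice. With the next brightest probe set, Cpt1a, Hadh and Mdh1 moved among the 6 genes. Besides Idh3b, whose sign turned with quantile normalization and loess, signs turned for Cs and Sucla2 with the mean over probe sets, for Hadh with the next brightest and for Cpt1a with both. No paired analysis was possible because each group has 1 array. Genes under the floor (Pc, Aco1 and Me2) have too little signal over the rest of the array for a difference to be read.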
